A study of Mus musculus with 78 samples.

Results

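The genes described here encode inhibitory receptors of T cells and a transcription factor of T cell exhaustion. They were chosen by name from the deposited gene count table: Pdcd1, Ctla4, Lag3, Havcr2, Tigit and Tox. Of these 6 names, 5 matched 1 gene each among the 14695 genes of the table. Havcr2, which encodes TIM-3, was not analysed here. The other 5 passed the filter on low counts in every fit, so no member was lost to it: Pdcd1 (ENSMUSG00000026285.9), Ctla4 (ENSMUSG00000026011.14), Lag3 (ENSMUSG00000030124.3), Tigit (ENSMUSG00000071552.6) and Tox (ENSMUSG00000041272.12).

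Inhibitory receptors are put on the T cell surface after activation and damp signalling when they meet their ligands. PD-1 (Pdcd1) recruits the phosphatase SHP-2 on binding PD-L1 or PD-L2, CTLA-4 competes with the costimulatory receptor CD28 for CD80 and CD86, LAG-3 binds MHC class II among other ligands, and TIGIT competes with CD226 for the poliovirus receptor. All are induced by activation itself, and their sustained presence together with the HMG-box factor TOX marks exhausted CD8+ T cells in chronic infection and tumours.

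The cells were primary CD8+ T cells of C57BL/6J mice, taken from the spleen and lymph nodes, and RNA was measured on day 3 of activation after a treatment of 3 h. In the nutrient experiment the cells were kept in complete medium (Control) or in medium with a nutrient left out: methionine, glutamine, glucose, arginine, or the branched-chain amino acids as a group (BCAA). In the drug experiment the vehicle DMSO was the control. Halofuginone blocks the synthetase that charges prolyl-tRNA, Torin1 blocks the mTOR kinase, and 4EGI-1 blocks the joining of eIF4E and eIF4G at the mRNA cap. From each lysate an input sample gave total RNA, and fractions 9 to 13 of a sucrose gradient were pooled as polysome RNA, the RNA carried by several ribosomes. Each of the 12 nutrient groups and 8 drug groups had 3 libraries, 60 in all, and 18 monosome libraries were not analysed here. All groups share the strain and the activation, so no group here is of resting or chronically stimulated cells. The labels name total RNA as the molecule of the nutrient experiment and polyA RNA for the drug experiment, so the experiments were fitted apart. No label says whether libraries of a group came from separate cultures or animals, so a p-value here refers to library-to-library spread alone, which may be technical.

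Library totals were 15144663 to 30637485 counts for nutrient total RNA, 29917770 to 54272886 for nutrient polysome RNA, 17506526 to 23099949 for drug total RNA and 17846266 to 24929556 for drug polysome RNA. All 7 CD8 T cell markers had a row, and their summed level was 1397 to 1982 CPM (read counts scaled to a fixed library size) in nutrient total RNA and 2359 to 3297 CPM in drug total RNA. Of the markers of other cells, 2 of 5 for B cells (Cd79a and Cd79b), 1 of 6 for myeloid cells (Cd68) and 2 of 3 for CD4 and regulatory T cells (Foxp3 and Ikzf4) had a row. None of the 3 NK cell and 3 erythroid markers was analysed here. The B cell sum was 1.57 to 3.03 CPM in nutrient total RNA and 7.19 to 17.4 CPM in drug polysome RNA, and Cd68 lay at 3.67 to 15.8 CPM over all 60 libraries. In drug polysome RNA, DMSO replicate 3 stood farthest from its group, with a standard deviation of 0.385 over the log2 deviations of all genes against 0.212 to 0.326 in the other libraries. Results of that fit are therefore also given without it where they change. In nutrient total RNA, No methionine replicate 1 stood farthest, at 0.243, and the next highest library was at 0.217. With it left out, 4833 genes were called for No methionine in total RNA, against 4448 with all libraries.

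Promoters are shown for the members with an entry among the RefSeq promoter sequences, since members moved together with Torin1. Entries matched 3 of the 5 measured members. Each line gives the 250 bases before the gene's start, 5′ to 3′ on the strand of the gene, in RefSeq's build GRCm38.p6, which is not the build GRCm39 named in the submitters' processing notes. Capitals mark TTTCC, the reverse complement of GGAAA, the core that NFAT factors bind; NFAT is the calcium-regulated factor that drives receptor genes after T cell activation.
Pdcd1, chr1:94052554-94052803, minus strand: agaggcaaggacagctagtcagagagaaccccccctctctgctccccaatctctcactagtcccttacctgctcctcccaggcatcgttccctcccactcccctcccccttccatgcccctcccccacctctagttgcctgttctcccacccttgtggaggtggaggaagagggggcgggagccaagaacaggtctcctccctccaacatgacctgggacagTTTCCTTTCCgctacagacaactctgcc
Ctla4, chr1:60908775-60909024, plus strand: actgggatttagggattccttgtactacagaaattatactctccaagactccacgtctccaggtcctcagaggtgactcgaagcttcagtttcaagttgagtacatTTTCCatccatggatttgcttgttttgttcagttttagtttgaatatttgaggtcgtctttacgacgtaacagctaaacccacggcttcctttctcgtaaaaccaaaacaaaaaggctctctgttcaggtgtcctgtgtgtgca
Tigit, chr16:43664185-43664434, minus strand: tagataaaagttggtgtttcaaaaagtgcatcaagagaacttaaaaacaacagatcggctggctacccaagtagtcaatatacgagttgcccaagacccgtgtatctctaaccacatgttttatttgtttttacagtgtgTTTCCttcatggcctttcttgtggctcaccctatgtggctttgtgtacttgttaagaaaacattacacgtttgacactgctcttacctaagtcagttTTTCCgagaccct
The core lay 28 and 23 bases before the start of Pdcd1, 144 bases before that of Ctla4 and 110 and 13 bases before that of Tigit. GGAAA on either strand occurs in 55.6% of the 32851 promoter windows of this length, so a match is common. Neither the AP-1 motif TGANTCA (6.75% of all windows) nor the FOXO motif TGTTTAC (3.17%) was found in these 3 windows on either strand. GC content was 60.4% for Pdcd1, 42.4% for Ctla4 and 40.0% for Tigit. A match describes the letters only.

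After 3 h without a nutrient, Pdcd1 was higher than in Control in total RNA in each of the 5 media, by 1.15-fold to 1.51-fold. Ctla4 was split: total RNA rose without BCAA, fell without glucose and fell without glutamine. Lag3 and Tigit passed the test in total RNA in no medium, while Tox rose without glucose from a level near the floor of detection. Members called per medium were 1 of 5 without arginine, 2 of 5 without BCAA, 3 of 5 without glucose, 2 of 5 without glutamine and 1 of 5 without methionine. Over all genes tested, 9.24%, 30.1%, 40.8%, 39.0% and 35.2% were called in the same comparisons, so 9 of 25 member results stand against 30.9% of all results. A call is an adjusted p under 0.05 in edgeR's quasi-likelihood test with Benjamini-Hochberg adjustment over all genes of a fit. Levels are CPM scaled by TMM factors and serve to compare a gene with itself, not with another gene, since they are not per length. In bulk RNA, fewer cells that express a gene and less of its RNA per cell cannot be told apart.

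Pdcd1 in total RNA stood at 57.4, 54.4 and 61.2 CPM in the Control libraries. Without BCAA it stood at 83.4, 93.3 and 85.3 CPM. Without glutamine the libraries held 80.1, 86.3 and 84.0 CPM. These deprived libraries all lay above every Control library. The share of all genes whose groups lay apart in this way was not counted, so here and below it describes the values only. The log2 fold change was 0.60 ± 0.08 (SE) without BCAA (1.51-fold, adjusted p = 7.56e-06) and 0.53 ± 0.08 without glutamine (1.45-fold, adjusted p = 2.08e-05). Arginine-free medium gave 76.2, 77.7 and 72.4 CPM, a log2 change of 0.39 ± 0.08 (adjusted p = 0.00452). Methionine-free medium gave 67.4, 84.2 and 87.1 CPM, with replicate 1 the lowest, and a log2 change of 0.46 ± 0.08 (adjusted p = 0.000127). Neither group overlapped Control. Without glucose the values were 63.1, 66.5 and 69.7 CPM, clear of Control but close to it, and the log2 change was 0.21 ± 0.08 (adjusted p = 0.0499). That last call was lost without Control replicate 1 (adjusted p = 0.0946), Control replicate 2 (0.176), No glucose replicate 2 (0.0929) or No glucose replicate 3 (0.155), and under RLE size factors, a minimum count of 50 or DESeq2.

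Pdcd1 in polysome RNA was 79.4, 96.3 and 91.5 CPM in Control. It was 122, 132 and 118 CPM without arginine, 128, 123 and 118 CPM without BCAA and 115, 132 and 130 CPM without glutamine. The log2 changes were 0.48 ± 0.09 (adjusted p = 0.000397), 0.47 ± 0.09 (adjusted p = 0.0002) and 0.50 ± 0.09 (adjusted p = 7.51e-05), and these 3 groups lay wholly above Control. Without methionine it was 98.4, 108 and 114 CPM, a log2 change of 0.26 ± 0.09 (adjusted p = 0.0130) that missed the threshold without Control replicate 1 (0.19, adjusted p = 0.0809). Without glucose it was 90.3, 97.3 and 112 CPM and overlapped Control, with a log2 difference of 0.16 ± 0.09 (adjusted p = 0.124), which was called only with No glucose replicate 1 left out (0.23, adjusted p = 0.0466). Glucose removal thus gave the lowest mean Pdcd1 level of the 5 media in both fractions. On polysomes its libraries overlapped those of No methionine. In total RNA the difference from No BCAA was 0.39 ± 0.08 (adjusted p = 0.00101) and the difference from No glutamine was 0.33 in size (adjusted p = 0.00388).

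Ctla4 in total RNA was 1033, 1172 and 1206 CPM in Control. Without BCAA it was 1382, 1438 and 1491 CPM, above every Control library, a log2 change of 0.34 ± 0.08 (1.26-fold, adjusted p = 0.00354). Without glucose it was 758, 761 and 825 CPM, below every Control library, a log2 change of -0.54 ± 0.08 (adjusted p = 2.51e-05). Ctla4 was the member that separated the media most, with 8 of the 10 pairs of deprived media called in total RNA, where 26.7% of all such results were called. The widest pair was No BCAA over No glucose, at 0.88 ± 0.08 (1.84-fold, adjusted p = 1.59e-07). Without glutamine the libraries held 826, 1012 and 965 CPM, a log2 change of -0.28 ± 0.08 (adjusted p = 0.00947). This call was lost without Control replicate 3 (-0.24, adjusted p = 0.0562) or No glutamine replicate 1 (-0.20, adjusted p = 0.0764). Without arginine the values of 1317, 1295 and 1300 CPM lay above Control, with a log2 difference of 0.20 ± 0.08 that did not pass (adjusted p = 0.148, or 0.0478 with the replicate number as a block). Methionine-free medium gave 980, 1210 and 1160 CPM, which overlapped Control (-0.03 ± 0.08).

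On polysomes the log2 difference of Ctla4 from Control was higher than in total RNA in each of the 5 media. Control held 1269, 1453 and 1300 CPM. No BCAA held 2267, 2187 and 2142 CPM and No arginine 2270, 2351 and 1797 CPM. Both groups lay above Control, by 0.71 ± 0.10 (1.64-fold, adjusted p = 6.76e-06) and 0.67 ± 0.10 (1.60-fold, adjusted p = 5.07e-05). No methionine held 1523, 1833 and 1724 CPM, a log2 change of 0.34 ± 0.10 (adjusted p = 0.00535). The values without glutamine were 1420, 1764 and 1424 CPM (0.20 ± 0.10, adjusted p = 0.0904, or 0.0358 with the replicate number as a block) and without glucose 1189, 1267 and 1177 CPM (-0.15 ± 0.10, adjusted p = 0.212). Thus the glucose and glutamine results that were called lower in total RNA were not called lower in polysome RNA.

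Lag3 in total RNA lay between 114 and 169 CPM over the 18 nutrient libraries. Control held 114, 134 and 124 CPM. No methionine, with 144, 144 and 150 CPM, and No glucose, with 135, 154 and 139 CPM, lay above every Control library, and the other 3 groups overlapped it. None was called: the log2 difference was 0.23 ± 0.10 without methionine (adjusted p = 0.0863), 0.20 ± 0.10 without glucose (0.126) and 0.21 ± 0.10 without arginine (0.21). The arginine result was called with No arginine replicate 3 left out (0.33, adjusted p = 0.0355). With the replicate number as a block, the methionine (adjusted p = 0.0230) and glucose (0.0450) results were called, the latter also in a fit of only the groups compared (0.0409). In polysome RNA, Lag3 rose in each of the 5 media. Control held 151, 134 and 177 CPM, and No methionine held 291, 308 and 391 CPM, above every library of any other medium. The log2 change without methionine was 1.10 ± 0.14 (2.14-fold, adjusted p = 8.3e-07). It exceeded the level of each other deprived medium by 0.58 to 0.74 on the log2 scale (adjusted p = 0.00149 against No arginine, 0.00115 against No BCAA, 0.000175 against No glucose and 0.00029 against No glutamine). The changes without arginine, 0.52 ± 0.14 (adjusted p = 0.00523), and without BCAA, 0.48 ± 0.14 (adjusted p = 0.00598), came from 262, 226 and 175 CPM and from 201, 243 and 199 CPM. The No arginine libraries overlapped Control through replicate 3.

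Without glucose the Lag3 polysome libraries held 205, 190 and 199 CPM, and without glutamine 183, 226 and 193 CPM. Both groups lay above Control, with log2 changes of 0.36 ± 0.14 (adjusted p = 0.0291) and 0.38 ± 0.14 (adjusted p = 0.0196). The glucose call was lost without Control replicate 1 (adjusted p = 0.0617), Control replicate 2 (0.145), No glucose replicate 1 (0.0739) or No glucose replicate 3 (0.0573). The glutamine call was lost without Control replicate 2 (0.109) or No glutamine replicate 2 (0.102).

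Tigit in total RNA was 13.8, 15.4 and 13.2 CPM in Control, and no medium was called. The glucose result was called in a fit of only the groups compared (-0.26, adjusted p = 0.0445). No methionine held 25.0, 14.3 and 12.4 CPM, so its log2 difference of 0.28 ± 0.17 (adjusted p = 0.206) rested on replicate 1. Without that library the difference was -0.10, and without replicate 3 it was 0.47 (adjusted p = 0.0288). In polysome RNA, Tigit was the receptor that fell. Control held 32.2, 27.0 and 27.8 CPM. No glucose held 16.2, 17.5 and 20.3 CPM, No glutamine 20.6, 18.8 and 20.9 CPM, and No methionine 23.0, 19.6 and 24.0 CPM. All 9 of these libraries lay below every Control library. The log2 changes were -0.69 ± 0.12 (1.61-fold, adjusted p = 5.99e-05), -0.53 ± 0.12 (adjusted p = 0.000618) and -0.39 ± 0.12 (adjusted p = 0.00643). No arginine, with 31.8, 23.9 and 28.4 CPM, and No BCAA, with 31.5, 26.6 and 24.2 CPM, overlapped Control (-0.05 ± 0.12 and -0.08 ± 0.12). The log2 difference between No arginine and No glucose was 0.64 ± 0.12 (adjusted p = 0.000223). The Tigit locus overlaps Zbtb20 in the RefSeq annotation of GRCm38.p6, and strand-specific counting is not given in the sources used here, so reads of these genes cannot be told apart. Mean Zbtb20 levels were 2.81 to 3.99 CPM in nutrient total RNA and 4.99 to 7.95 CPM in nutrient polysome RNA.

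Tox was close to the floor of the nutrient experiment, at 11 to 34 counts in a total RNA library and 23 to 96 in a polysome library. In total RNA Control held 0.610, 1.00 and 0.551 CPM. No glucose held 1.48, 1.40 and 1.21 CPM, above every Control library, a log2 change of 0.91 ± 0.27 (1.88-fold, adjusted p = 0.0108). That call was lost without Control replicate 3 (0.74, adjusted p = 0.0621). No methionine held 1.42, 1.22 and 0.837 CPM and overlapped Control, with a log2 difference of 0.68 ± 0.28 (adjusted p = 0.0636). It was called without Control replicate 2 (0.99, adjusted p = 0.0179) or No methionine replicate 3 (0.86, adjusted p = 0.031).

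The deeper polysome libraries gave the clearer Tox result. Control held 0.842, 0.853 and 1.04 CPM, from 33, 36 and 44 counts. No glucose held 2.38, 2.47 and 1.77 CPM, from 96, 77 and 71 counts, and No methionine held 1.71, 1.62 and 1.26 CPM. Both groups lay above Control. The log2 changes were 1.26 ± 0.20 (2.40-fold, adjusted p = 2.31e-05) and 0.75 ± 0.21 (1.69-fold, adjusted p = 0.00326). No glucose exceeded No glutamine by 1.30 ± 0.20 (2.47-fold, adjusted p = 4e-05). Without arginine, BCAA and glutamine the differences from Control were 0.26 ± 0.21, 0.32 ± 0.22 and -0.04 ± 0.22, none of them called. Tox overlaps the RefSeq gene Gm11802, whose reads cannot be told apart from those of Tox either.

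**Figure D1:**
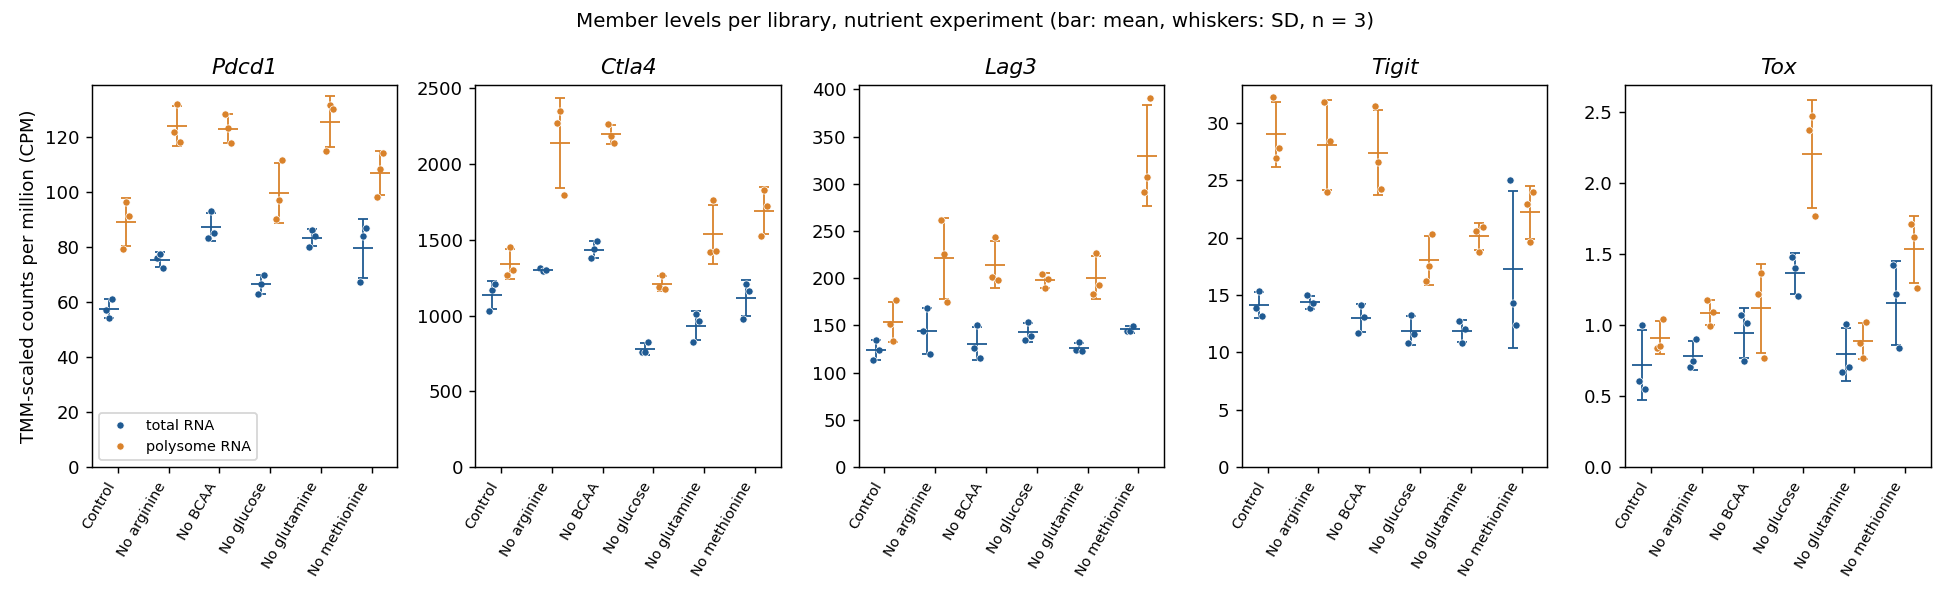
Level of each of the 5 genes in CPM (scaled by TMM factors) in the nutrient experiment, total and polysome RNA; points are libraries, the bar is the mean and whiskers are the SD (n = 3 a group). Ctla4 was lowest without glucose in both fractions, Lag3 on polysomes was highest without methionine, at 291 to 391 CPM, and Tigit on polysomes was lower than Control without glucose, glutamine and methionine.

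In polysome RNA the members called were 3 of 5 without arginine, all higher, against 40.5% of all tested genes called and 19.0% called higher. Without BCAA it was again 3 of 5, all higher, against 56.1% called and 28.7% called higher. Without glucose 2 rose and 1 fell (59.0% of all genes called), and without glutamine 2 rose and 1 fell (64.5%). All 5 members were called without methionine, 4 higher and Tigit lower, where 69.0% of all genes were called. In total, 17 of 25 results were called, against 57.8% over all genes, so the share by itself sets the members little apart from the table. The pairs of deprived media were called for 29 of 50 results in polysome RNA (42.9% over all genes). In total RNA it was 15 of 50 (26.7% over all genes). By member, Ctla4 gave 8 of 10 pairs on polysomes, Tigit 7, Tox 6, Lag3 4 and Pdcd1 4.

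Ranked by mean level in total RNA, Pdcd1 ran No BCAA, No glutamine, No methionine and No arginine, each overlapping the next, then No glucose and last Control, both clear of their neighbours. Ctla4 ran No BCAA, No arginine, Control, No methionine, No glutamine and No glucose, where only Control, No methionine and No glutamine overlapped in turn. Lag3, Tigit and Tox had no gap between neighbours in total RNA. On polysomes a gap between neighbours lay below No BCAA for Pdcd1 and Tigit and above No glucose for Ctla4. Lag3 had gaps below No methionine and above Control, and Tox had a gap below No glucose. Several gaps were very narrow: 1267 to 1269 CPM for Ctla4, 24.0 to 24.2 CPM for Tigit and 1.71 to 1.77 CPM for Tox. In total RNA the Ctla4 gap between No glucose and No glutamine ran from 825 to 826 CPM. Polysome Ctla4 without glucose was not called against Control.

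Some defining markers of the cells themselves were called too. Of the 7 CD8 T cell markers, 2 fell in polysome RNA without arginine, 3 without BCAA, 6 without glucose, 5 without glutamine and 5 without methionine, and none rose. Over all genes, 40.5%, 56.1%, 59.0%, 64.5% and 69.0% were called in the same comparisons, in either direction. Cd3e, which encodes CD3 epsilon, fell in each medium, from 0.26 on the log2 scale without arginine to 1.13 without methionine, while polysome Cd8a was called in none (-0.20 without glucose to 0.15 without arginine). In total RNA 1 marker fell without glucose and 4 without glutamine, where 40.8% and 39.0% of all genes were called. In the other 3 media 0 markers were called, against 9.24% of all genes without arginine, 30.1% without BCAA and 35.2% without methionine. The part of these changes in the member results was not tested.

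**Figure D2:**
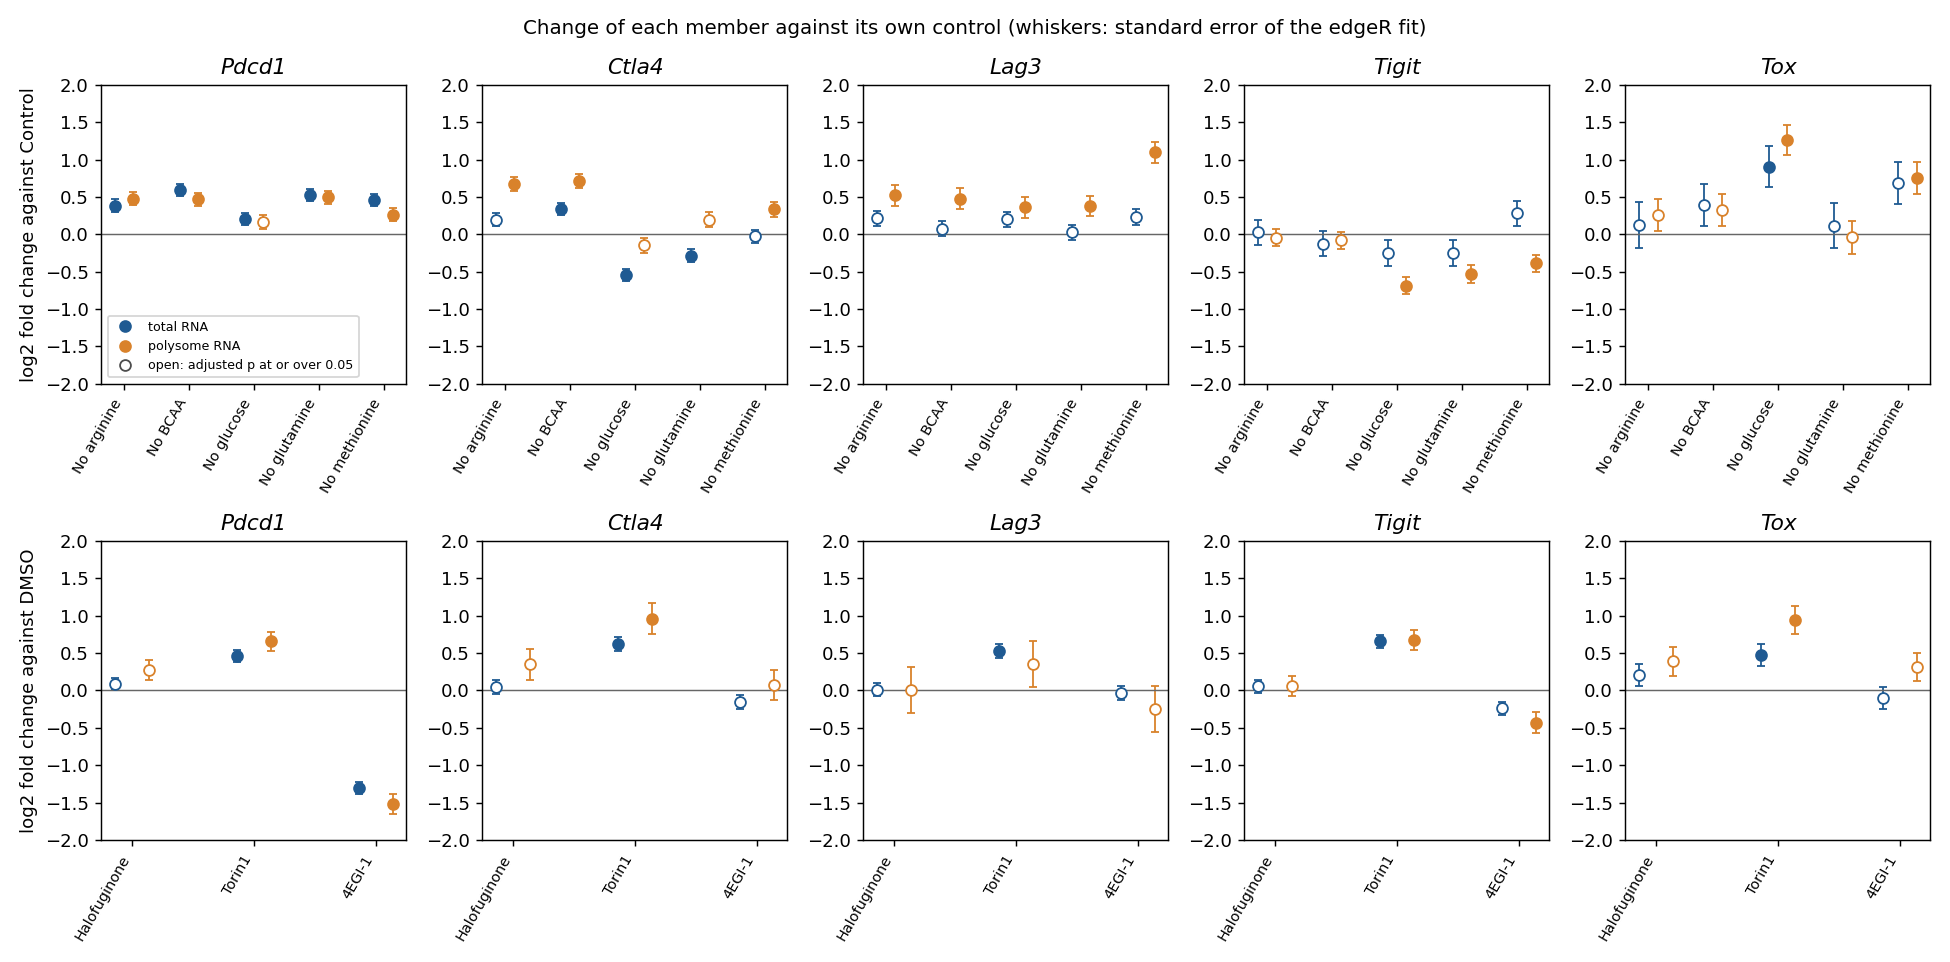
Log2 fold change of each gene in each condition against its own control (Control or DMSO), in total and polysome RNA; whiskers are the SE, filled points have an adjusted p under 0.05 and open points do not. Pdcd1 lies above 0 in all 5 nutrient conditions, all 5 genes lie above 0 with Torin1, and Pdcd1 lies at -1.31 and -1.52 with 4EGI-1.

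The change in polysome RNA beyond that in total RNA was tested as an interaction in a joint fit of both fractions and is called translational efficiency here. It was called for 4 of 25 member results, against 30.7% of all results. By medium the members gave 1 of 5 without arginine (16.5% of all genes called), 0 of 5 without BCAA (26.9%), 0 of 5 without glucose (25.8%), 1 of 5 without glutamine (35.2%) and 2 of 5 without methionine (49.1%). With an unadjusted p under 0.05 there were 0 members without BCAA and 2 without glucose. Called genes split differently by scaling: without glutamine 28.4% of them were higher, and 49.5% under RLE size factors, whose median over all genes lay 0.13 higher. Without BCAA the split was 29.8% against 43.0%, and without glucose 34.3% against 51.0%.

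Methionine removal gave the largest member differences in translational efficiency, in opposite directions. Lag3 rose by 0.78 ± 0.18 on the log2 scale (1.72-fold, adjusted p = 0.000484) and Tigit fell by 0.76 ± 0.21 (adjusted p = 0.00312). The Tigit call was lost in a fit of only the groups compared. Tigit in total RNA without methionine was 25.0, 14.3 and 12.4 CPM, so part of its fall rested on the high replicate 1. Its call was kept with No methionine replicate 1 left out. Ctla4 rose by 0.46 ± 0.13 without arginine (1.38-fold, adjusted p = 0.0180) and by 0.34 ± 0.13 without glutamine (1.26-fold, adjusted p = 0.0487). The arginine call was lost without Control replicate 3 (adjusted p = 0.0932), No arginine replicate 1 (0.104) or No arginine replicate 2 (0.11). The glutamine call was lost without Control replicate 1 (0.0644), Control replicate 3 (0.19), No glutamine replicate 1 (0.1) or No glutamine replicate 2 (0.126), with no filter, and in a fit of only the groups compared. Pdcd1 differed by -0.29 ± 0.13 without methionine (adjusted p = 0.0588). That value was called without Control replicate 1 (-0.38, adjusted p = 0.0227) or No methionine replicate 1 (-0.34, adjusted p = 0.0273), with no filter, with a minimum count of 50, and without rRNA-derived and mitochondrial entries.

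Total and polysome libraries of the same number come from the same lysate, and with the lysate as a replicate block 9 of 25 were called in place of 4. Over all genes the blocked fit called 36.0% of results, in place of 30.7%. Ctla4 was then called higher in all 5 media: 0.45 without arginine (adjusted p = 0.00149), 0.27 without BCAA (0.0290), 0.31 without glucose (0.0129), 0.34 without glutamine (0.00518) and 0.27 without methionine (0.0150). Without the block the BCAA, glucose and methionine values for Ctla4 had adjusted p = 0.145, 0.0909 and 0.0938. All 3 were also called in a fit of only the groups compared (0.0245, 0.0240 and 0.0391), and glucose and methionine under RLE size factors (0.0363 for each) and DESeq2 (0.0254 and 0.0322). The block also called Pdcd1 lower without methionine (-0.28, adjusted p = 0.0151) and Tigit lower without glucose (-0.52, adjusted p = 0.0357). The Tigit result without glucose was also called with No glucose replicate 3 left out (-0.65, adjusted p = 0.0478) and in a fit of only the groups compared (-0.47, adjusted p = 0.0335), which called Tigit lower without glutamine too (-0.42, adjusted p = 0.0173).

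Within Control alone, polysome RNA was compared with total RNA. This shows how far a gene's message was enriched in the pooled polysome fractions relative to the other genes. Of the 5 members, 4 were higher on polysomes, where 65.7% of all genes differed and 37.6% were higher. Tigit gave 1.06 ± 0.15 (2.09-fold, adjusted p = 1.9e-07) and Pdcd1 0.65 ± 0.09 (1.57-fold, adjusted p = 1.82e-07). Ctla4 gave 0.26 ± 0.10 (adjusted p = 0.0155) and Lag3 0.34 ± 0.13 (adjusted p = 0.0206). Both of the smaller calls were lost under RLE size factors, DESeq2, a minimum count of 50 and a fit of only the groups compared. They were also lost without Control replicate 1 (adjusted p = 0.0533 for Ctla4 and 0.0913 for Lag3), and that of Ctla4 without Control replicate 2 (0.115) and that of Lag3 without Control replicate 3 (0.216). Tox gave 0.37 ± 0.25 (adjusted p = 0.192), called without Control replicate 2 (0.72, adjusted p = 0.0444).

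**Figure D3:**
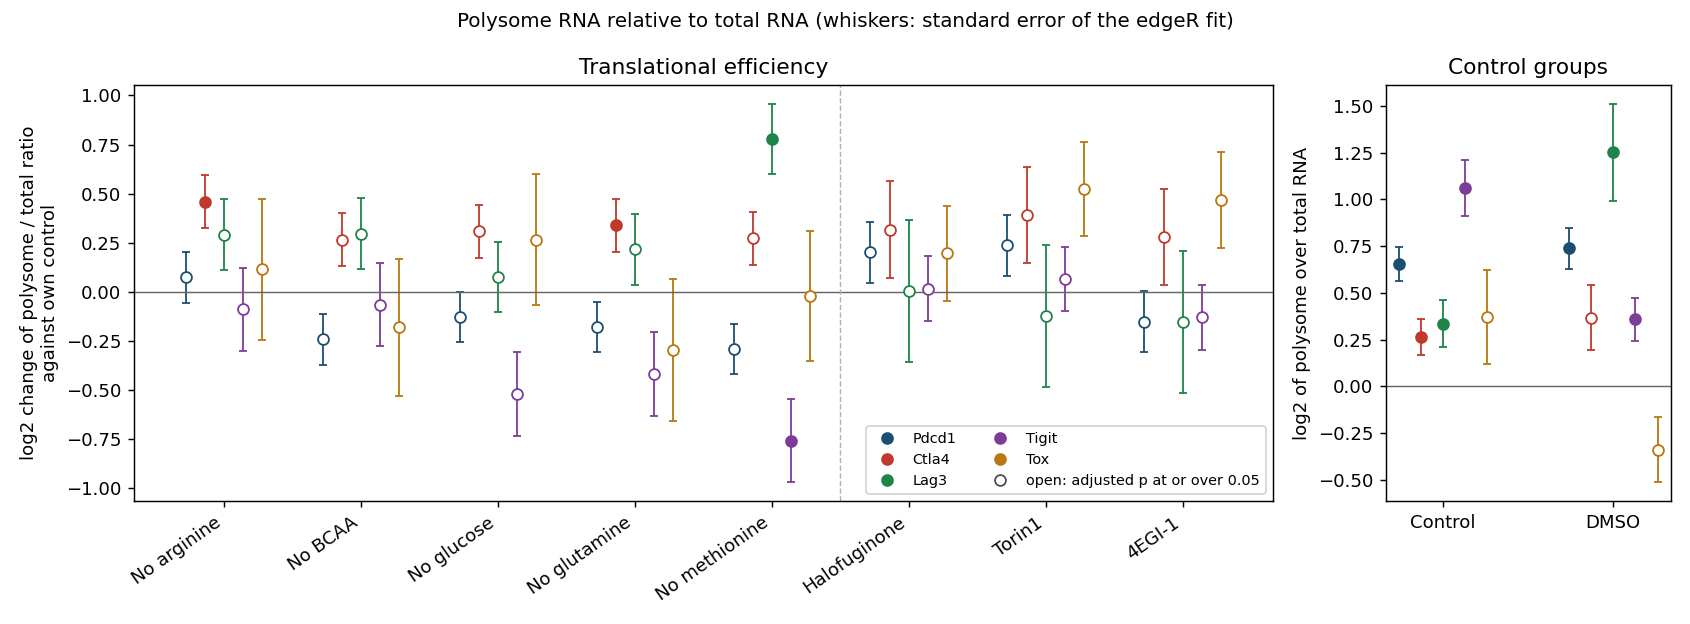
Left, translational efficiency of each gene against its own control (log2 change of polysome over total RNA); right, log2 of polysome over total RNA within Control and within DMSO; whiskers are the SE and filled points have an adjusted p under 0.05. On the left, Lag3 at 0.78 and Tigit at -0.76 without methionine lie on opposite sides of 0 and no point of a compound is filled. That Tigit value includes the high total RNA library of No methionine replicate 1. On the right, Tigit lies at 1.06 in Control and Lag3 at 1.25 in DMSO, the latter 0.69 without DMSO replicate 3.

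In the drug experiment, Torin1 raised all 5 members in total RNA and 4 of the 5 in polysome RNA. 4EGI-1 lowered Pdcd1 to under the level of every other group in both fractions, and no member was called with Halofuginone. With Torin1 13.3% of all genes were called higher in total RNA and 26.7% in either direction. In polysome RNA 8.48% were called higher and 16.8% in either direction. With 4EGI-1, 1 of 5 members was called in total RNA (26.4% of all genes) and 2 of 5 in polysome RNA (28.6%).

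Torin1 raised Pdcd1 in total RNA from 73.2, 86.6 and 82.4 CPM with DMSO to 112, 117 and 106 CPM, by 0.47 ± 0.08 on the log2 scale (1.38-fold, adjusted p = 0.000356). Ctla4 rose from 712, 842 and 700 CPM to 1209, 1250 and 1006 CPM, by 0.62 ± 0.09 (1.54-fold, adjusted p = 0.000104). Lag3 rose from 323, 361 and 339 CPM to 514, 518 and 447 CPM, by 0.53 ± 0.09 (1.45-fold, adjusted p = 0.000349). No Torin1 library overlapped DMSO for any of these receptors. Tigit rose from 99.5, 102 and 120 CPM to 180, 159 and 168 CPM, by 0.66 ± 0.09 (1.58-fold, adjusted p = 3.59e-05). Tox rose from 13.0, 13.8 and 10.7 CPM to 14.5, 17.5 and 20.1 CPM, by 0.47 ± 0.14 (1.39-fold, adjusted p = 0.0197). The Tox groups also did not overlap, but the call was lost without DMSO replicate 4 (0.36, adjusted p = 0.109), Torin1 replicate 3 (0.46, adjusted p = 0.055) or Torin1 replicate 4 (0.34, adjusted p = 0.116).

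On polysomes with Torin1, Pdcd1 was 217, 198 and 175 CPM against 124, 130 and 120 CPM with DMSO, a log2 change of 0.66 ± 0.13 (1.58-fold, adjusted p = 0.00269). Ctla4 was 1793, 2175 and 1278 CPM against 794, 1061 and 836 CPM, a change of 0.96 ± 0.20 (1.95-fold, adjusted p = 0.00381). These groups did not overlap, though the Ctla4 libraries spread widely. Tigit was 220, 198 and 192 CPM against 118, 110 and 154 CPM (0.67 ± 0.14, adjusted p = 0.00313). Tox was 17.3, 20.5 and 15.3 CPM against 8.28, 8.08 and 11.1 CPM (0.95 ± 0.19, 1.93-fold, adjusted p = 0.00243). Lag3 overlapped, with 841, 1293 and 760 CPM against 469, 1270 and 517 CPM, because DMSO replicate 3 was the high library of its group. The Lag3 difference was 0.36 ± 0.31 (adjusted p = 0.454), and without DMSO replicate 3 it was 1.00 (adjusted p = 0.0130).

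With 4EGI-1, total Pdcd1 was 31.7, 35.4 and 30.8 CPM, and its log2 change was -1.31 ± 0.08 (2.48-fold lower than DMSO, adjusted p = 1.34e-08). Polysome Pdcd1 was 49.1, 44.1 and 37.2 CPM, a log2 change of -1.52 ± 0.14 (2.87-fold lower, adjusted p = 1.02e-06). The 6 libraries lay below every DMSO library of their fraction. Tigit fell on polysomes to 104, 95.4 and 84.4 CPM (-0.43 ± 0.14, adjusted p = 0.0271). This call was lost without DMSO replicate 4 (-0.26, adjusted p = 0.184), 4EGI-1 replicate 3 (-0.44, adjusted p = 0.063) or 4EGI-1 replicate 4 (-0.35, adjusted p = 0.11), and in a fit of only the groups compared. In total RNA, Tigit was 99.3, 90.2 and 83.1 CPM (-0.24 ± 0.09, adjusted p = 0.0568). That difference was called without DMSO replicate 1 (adjusted p = 0.0381), DMSO replicate 3 (0.0468) or 4EGI-1 replicate 2 (0.0244), and under RLE size factors, no filter and DESeq2. Ctla4, at 740, 660 and 633 CPM in total RNA, overlapped DMSO (-0.15, adjusted p = 0.261), as did Lag3 at 385, 320 and 294 CPM (-0.04, adjusted p = 0.811) and Tox at 10.9, 12.1 and 12.0 CPM (-0.10, adjusted p = 0.659). On polysomes these 3 genes differed by 0.07, -0.25 and 0.31, with adjusted p = 0.823, 0.576 and 0.23. The sign for Lag3 turned without DMSO replicate 3 (0.39, adjusted p = 0.272). Mean levels of Zbtb20, the gene that overlaps Tigit, were 3.44 to 4.98 CPM in drug total RNA and 0.415 to 2.16 CPM in drug polysome RNA.

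Halofuginone gave Pdcd1 at 83.2, 83.9 and 89.9 CPM and Ctla4 at 827, 769 and 730 CPM in total RNA, within or beside the DMSO values. The 5 log2 differences in total RNA were 0.09, 0.05, 0.01, 0.05 and 0.21 for Pdcd1, Ctla4, Lag3, Tigit and Tox, each with an SE of 0.08 to 0.14. On polysomes Pdcd1 was 140, 163 and 149 CPM, above every DMSO library, but it was not called. The log2 differences in polysome RNA, in the same order of genes, were 0.28 ± 0.13, 0.35 ± 0.20, 0.01 ± 0.31, 0.06 ± 0.14 and 0.39 ± 0.19. Without DMSO replicate 3 the Lag3 difference was 0.63 (adjusted p = 0.395) and that of Tigit -0.02 (adjusted p = 0.981). Over all genes 0.279% were called in total RNA and 0.0491% in polysome RNA. At an unadjusted p under 0.05 there were 0 members in total RNA and 1 in polysome RNA by edgeR.

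**Figure D4:**
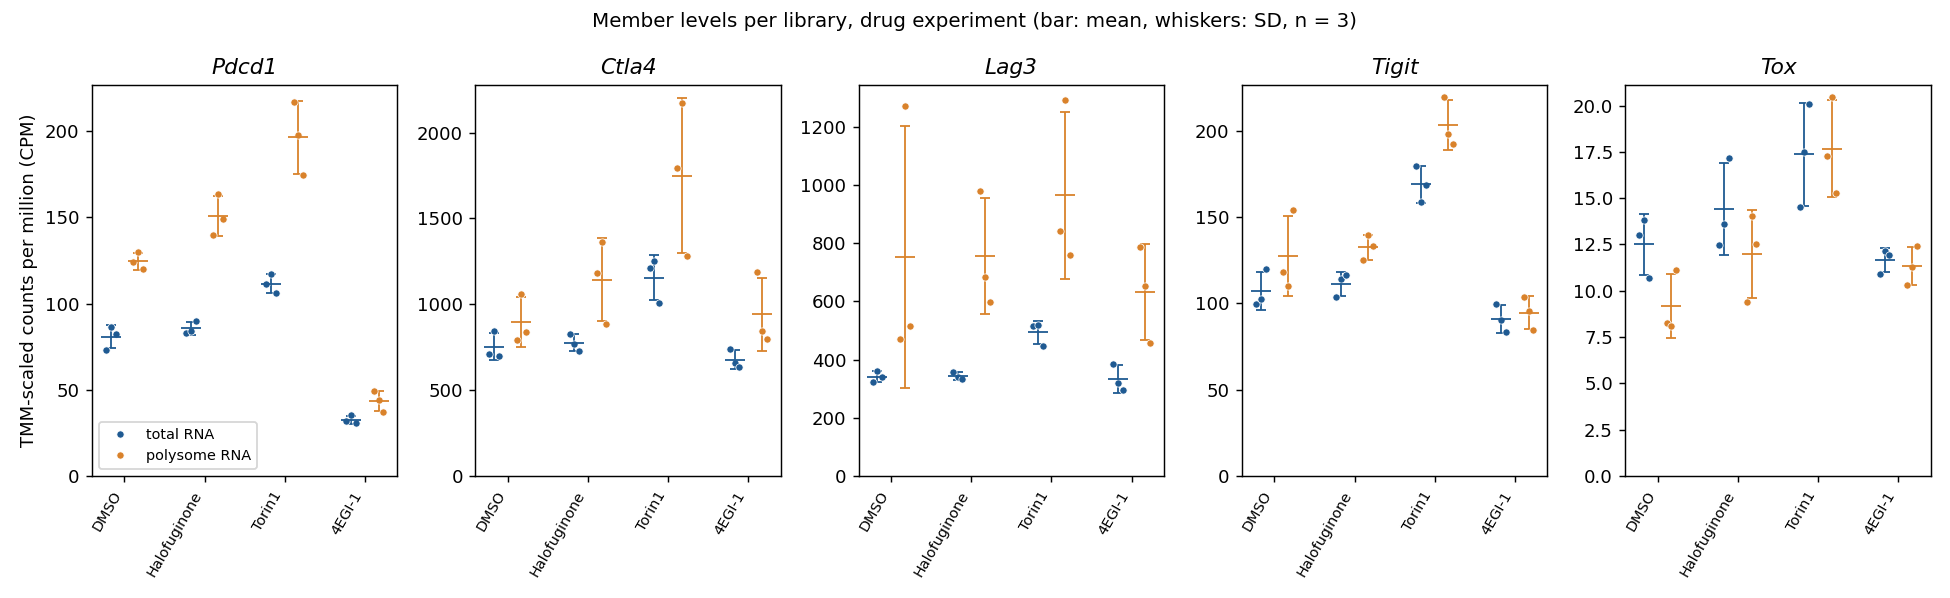
Level of each of the 5 genes in CPM (scaled by TMM factors) in the drug experiment, total and polysome RNA; points are libraries, the bar is the mean and whiskers are the SD (n = 3 a group). The Torin1 mean is the highest of the 4 groups for all 5 genes in total RNA, 4EGI-1 libraries lie lowest for Pdcd1 at 30.8 to 49.1 CPM, and DMSO replicate 3 is the high Lag3 polysome library at 1270 CPM.

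The compounds were also set against each other, in 3 pairs a fraction. In total RNA 11 of 15 results were called, against 26.9% over all genes, and in polysome RNA 7 of 15, against 13.6%. Torin1 exceeded 4EGI-1 in total RNA for all 5 members: by 1.77 ± 0.08 for Pdcd1 (3.42-fold, adjusted p = 1.09e-10), 0.77 ± 0.09 for Ctla4, 0.57 ± 0.09 for Lag3, 0.89 ± 0.09 for Tigit and 0.57 ± 0.14 for Tox (adjusted p = 0.00451). On polysomes the Pdcd1 difference was 2.18 ± 0.14 (4.52-fold, adjusted p = 6.15e-09). Halofuginone was below Torin1 in total RNA for Pdcd1 by -0.38 ± 0.08 (adjusted p = 0.00231), for Ctla4 by -0.57 ± 0.09 (0.00028), for Lag3 by -0.52 ± 0.09 (0.000517) and for Tigit by -0.60 ± 0.09 (0.000108). These comparisons share libraries with those against DMSO. Doses of the compounds are not compared.

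Translational efficiency was called for 0 of 15 member results in the drug experiment by edgeR. At an unadjusted p under 0.05 there was 1 with Torin1, 0 with Halofuginone and 0 with 4EGI-1. Over all genes 0% were called with Halofuginone, 1.79% with Torin1 and 0.565% with 4EGI-1. With all libraries the largest member values were 0.52 ± 0.24 for Tox (adjusted p = 0.353) and 0.39 ± 0.25 for Ctla4 (adjusted p = 0.525), both with Torin1. Without DMSO replicate 3 the largest was 0.56 for Lag3 with Halofuginone (adjusted p = 0.958). Tox with Torin1 was then 0.36 (adjusted p = 0.685) and Ctla4 0.43 (adjusted p = 0.601). DESeq2 and the lysate block also called 0 of 15.

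Within DMSO, polysome over total RNA was higher for Lag3 by 1.25 ± 0.26 (2.38-fold, adjusted p = 0.000165), for Pdcd1 by 0.74 ± 0.11 (1.67-fold, adjusted p = 1.88e-06) and for Tigit by 0.36 ± 0.12 (1.28-fold, adjusted p = 0.00962), whose libraries overlapped between the fractions. The Lag3 value rested in part on DMSO replicate 3: without it the log2 value was 0.69 (1.62-fold, adjusted p = 0.0134), below the 0.77 of Pdcd1 in the same fit. These 3 of 5 calls stand against 59.3% of all genes called and 28.4% called higher. Ctla4 gave 0.37 ± 0.17 (adjusted p = 0.0717), which was called with the lysate block (0.36, adjusted p = 0.00772) and in a fit of only the groups compared (0.38, adjusted p = 0.0302). Tox lay on the other side of 0, at -0.34 ± 0.17 (adjusted p = 0.0972), and was called without DMSO replicate 4 (-0.59, adjusted p = 0.0178). Without DMSO replicate 3 the Tox value was -0.17 (adjusted p = 0.526).

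Regulatory T cell markers moved with Torin1 beside the receptors, of which Ctla4 and Tigit are known to be abundant in that lineage. Foxp3 counts in total RNA were 5, 1 and 3 with DMSO and 17, 29 and 49 with Torin1 (3.60 ± 0.56, adjusted p = 0.000134). In polysome RNA they were 5, 15 and 13 against 36, 40 and 32 (adjusted p = 0.0509). The summed level of Foxp3 and Ikzf4 in total RNA was 27.7 to 31.0 CPM with DMSO, 37.7 to 41.6 CPM with Torin1 and 39.2 to 42.7 CPM with 4EGI-1. On polysomes it was 6.09 to 10.5 CPM, 11.7 to 15.2 CPM and 14.0 to 16.8 CPM. Ikzf4 carried most of this sum: it rose with Torin1 by 0.36 in total RNA and 0.66 on polysomes, and with 4EGI-1 by 0.47 and 0.96 (adjusted p = 0.0153, 0.0400, 0.00270 and 0.00333). Foxp3 was not called with 4EGI-1 (0.44 in total RNA, adjusted p = 0.716; -1.34 on polysomes, adjusted p = 0.0792). In the nutrient experiment Ikzf4 rose on polysomes by 0.52 without BCAA, 0.58 without glutamine and 0.47 without methionine (adjusted p = 0.000105, 1.73e-05 and 0.000153), and in total RNA by 0.35 without glutamine and by 0.35 without methionine (0.0424 and 0.0437). Foxp3 held 0 to 4 counts in each nutrient library and was not tested there. The part of these markers in the member results was not tested.

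The experiments differed in the control level of some members. Tigit averaged 14.1 CPM in Control and 107 CPM in DMSO total RNA, and Tox 0.721 and 12.5 CPM. Lag3 averaged 124 and 341 CPM, Pdcd1 57.7 and 80.7 CPM, and Ctla4 1137 and 751 CPM. RNA selection, vehicle and experiment differ together here and cannot be told apart, so no test was made. Replicate spread also differed for some members. The median coefficient of variation of Lag3 was 28.1% in drug polysome RNA and 12.8% in nutrient polysome RNA, and that of Ctla4 21.8% and 8.31%. Pdcd1 (9.26% and 7.45%) and Tox (16.7% and 14.9%) differed less, and Tigit went the other way (8.68% and 11.0%).

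The other genes of the pathway were taken from lists by role. Of 15 further inhibitory receptors 11 had a row. They gave 16 results higher and 3 lower of 50 in nutrient total RNA, and 23 higher and 5 lower of 50 in polysome RNA. These are 38.0% and 56.0% called, against 30.9% and 57.8% over all genes. Btla, the receptor for HVEM, rose without glutamine by 0.74 in total RNA (adjusted p = 1.80e-08) and 1.25 in polysome RNA (adjusted p = 8.81e-11). It rose with Torin1 by 0.66 (adjusted p = 0.000452) and 1.16 (adjusted p = 0.000894), in the direction of the 5 members. Klrc1, which encodes NKG2A, rose without glucose by 0.84 in total RNA (adjusted p = 8.53e-07). Pecam1 rose on polysomes without methionine by 0.92. In translational efficiency without methionine, Adora2a, a gene for an adenosine receptor, fell by 0.69 and Cd160 by 0.67. With 4EGI-1, Cd160 fell by 0.66 in total RNA and 0.82 on polysomes, so Pdcd1 was not the only inhibitory receptor to fall.

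Ligands of the receptors can be made by activated T cells themselves. With 8 of 10 listed ligands in the table, 12 results were higher and 3 lower of 40 in nutrient total RNA, and 19 higher and 5 lower of 40 in polysome RNA. The shares of 37.5% and 60.0% stand against 30.9% and 57.8% over all genes. Cd274, which encodes PD-L1, was called higher in each of the 5 media in both fractions. Its rise in total RNA ran from 0.56 without arginine to 1.01 without glutamine (adjusted p = 0.000694 and 2.62e-08). On polysomes it ran from 0.96 without arginine to 1.45 without glutamine (adjusted p = 7.04e-08 and 9.26e-12). Pdcd1 in total RNA was also called higher in each medium, most without BCAA. It rose by 0.53 in total RNA and 0.50 on polysomes without glutamine. Pdcd1lg2, which encodes PD-L2, rose by 0.94 in total RNA there. With 4EGI-1, Pdcd1lg2 fell by 1.50 in total RNA (adjusted p = 3.01e-07) and fell by 1.81 on polysomes; Pdcd1 fell there too. Pvr, the shared ligand of TIGIT and CD226, rose by 1.51 on polysomes with 4EGI-1. Cd86 rose by 1.96 in total RNA with Torin1 and by 2.07 ± 0.69 in translational efficiency without glucose (adjusted p = 0.0252). That latter value joined a polysome rise of 1.06 ± 0.31 to an uncalled total RNA difference of -1.09 ± 0.63 (adjusted p = 0.178). Cd80 rose by 0.57 in translational efficiency without methionine. Nectin3 was called lower on polysomes without glutamine (-1.50, adjusted p = 0.0417).

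Signalling, trafficking and shedding partners, all 17 in the table, gave 11 results higher and 17 lower of 85 in nutrient total RNA, or 32.9% called against 30.9% over all genes. On polysomes 19 were higher and 46 lower of 85, or 76.5% called against 57.8% over all genes, and in translational efficiency 12 were higher and 30 lower, or 49.4% against 30.7%. Rab11a, a GTPase of recycling endosomes, fell by 1.18 on polysomes and by 1.19 in translational efficiency without methionine. Csk, the kinase that restrains Lck, fell by 0.96 in translational efficiency without glutamine. Cblb, a ubiquitin ligase that limits T cell activation, rose without glucose by 0.82 in total RNA and 1.19 on polysomes, and with Torin1 by 0.58 and 0.75. Bag6 rose by 0.61 in total RNA without glucose. Pag1 fell by 0.74 in total RNA with Torin1 and Lck by 0.69 on polysomes with 4EGI-1.

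The 9 costimulatory receptors, the counterparts that promote signalling, gave 3 results higher and 9 lower of 45 in nutrient total RNA and 14 higher and 15 lower on polysomes. That is 26.7% and 64.4% called, against 30.9% and 57.8% over all genes. Cd27 fell by 0.84 in total RNA without glutamine and by 1.21 on polysomes without methionine, where its translational efficiency fell by 0.79. Tnfrsf4, which encodes OX40, fell by 0.66 in total RNA without glutamine and by 0.76 in translational efficiency without methionine. Icos rose by 0.98 on polysomes without glutamine. With Torin1 5 of 9 rose in total RNA and 0 fell, where 13.3% of all genes were called higher, and their median log2 difference was 0.52 against 0.01 over all genes. Cd28, the receptor that competes with CTLA-4 for ligands, rose by 1.20 in total RNA (adjusted p = 1.37e-07) and 1.58 on polysomes, and Slamf6 by 1.36 and 1.28.

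Among 20 relatives of TOX and transcription factors of exhaustion, 18 had a row. They gave 27 results higher and 14 lower of 90 in nutrient total RNA and 40 higher and 26 lower on polysomes. That is 45.6% and 73.3% called, against 30.9% and 57.8% over all genes. Nr4a1 and Nr4a3, nuclear receptors induced by antigen receptor signalling, led the list without methionine, at 2.16 and 1.84 in total RNA and 2.58 and 2.07 on polysomes. Id2 and Id3, inhibitors of E proteins, fell in translational efficiency without methionine by 1.37 and 1.20. With 4EGI-1, Eomes fell by 1.28 and Id3 by 1.23 in total RNA (adjusted p = 8.21e-05 and 6.93e-07), Id3 fell by 1.46 on polysomes and Ikzf2 rose there by 1.70. Nfatc2 rose in translational efficiency with 4EGI-1 (0.88, adjusted p = 0.0224), the only list gene called in that readout in the drug experiment.

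As a description of shared pattern, the log2 level of each member was centred on its experiment and fraction and set against that of 11610 genes over the 20 group means. Pdcd1 was nearest to Serpina3g (Pearson r = 0.970), Serpina3f (0.970) and Slfn2 (0.959). Ctla4 was nearest to Fbxo25 (0.939), Serinc3 (0.920) and Cysltr1 (0.888), and Lag3 to Vars2 (0.938), Srebf1 (0.926) and Myo1g (0.922). Tigit was nearest to Nudt16 (0.958), Tnfrsf13b (0.937) and Selp (0.927), and Tox to Ncf1 (0.922), Kifbp (0.890) and Atg16l2 (0.890). No member was among the nearest genes of another. Between members the highest r was 0.740 for Ctla4 with Tigit, then 0.652 for Pdcd1 with Tigit, and the lowest was 0.0701 for Ctla4 with Tox. The means share lysates across fractions and libraries within a fit, so these values carry no test.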

How the data were processed

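Polysome and total RNA of mouse CD8+ T cells were sequenced, and the deposited table holds raw read counts per gene made by the authors. Per the submitters' processing notes the tools were FastQC, MultiQC, Trimmomatic, STAR, HTSeq and edgeR with build GRCm39; versions, strand setting and annotation are not given in the sources used here. The members and gene lists were chosen with earlier results of these data known. Genes are named by the table's Name column (14246 symbols, 449 identifiers only), and all 60 columns were matched to labels.

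Counts were filtered (filterByExpr, minimum count 10), scaled by TMM and tested with edgeR 4.0.16 (quasi-likelihood F test) in R 4.3.3, with Benjamini-Hochberg adjustment over all genes tested and a threshold of 0.05. Each experiment and fraction had 1 fit over all its groups: 12642 genes in nutrient total RNA, 12417 in nutrient polysome RNA, 12535 in drug total RNA and 12223 in drug polysome RNA. Translational efficiency was the interaction of fraction and condition in a joint fit (13072 and 12745 genes). SE is the absolute log2 fold change over the square root of F, and SD is over 3 libraries. The named genes are the members, the called genes of each list with the largest and next largest absolute log2 change in each experiment and readout, and the 3 genes most like each member; log2 levels for likeness used a prior count of 2. Alternatives were RLE factors, DESeq2 1.42.0, no filter, a minimum count of 50, leaving out rRNA-derived and mitochondrial entries, only the groups compared, a replicate block and each library left out. The fits were tested on simulated data.

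Same-numbered libraries of different groups were checked for pairing: correlations of their deviations ran from -0.201 to 0.343 and not every one was above 0.1. Total and polysome libraries of the same lysate, known to be paired, ran from -0.0289 to 0.282 (nutrient) and from -0.0289 to 0.366 (drug). The check therefore cannot exclude pairing by number. Groups were left unpaired in the main fits, and the replicate block was run as an alternative. Total and polysome RNA of the same lysate are paired by their source. Library totals are raw sums; intervals of counting error were not used, since every value has 3 libraries.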

Additional observations from a re-analysis of the deposited data

How the results depend on the processing

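No member result against its own control that was called changed direction under any alternative run. The count of called member results in nutrient translational efficiency was 4 of 25, and moved to 7 with only the groups compared and to 9 with the lysate as a replicate block; with each library left out it ran from 2 (without Control replicate 3) to 5. Polysome over total RNA in Control gave 4 of 5, and 2 under DESeq2, RLE size factors, a minimum count of 50 and only the groups compared; with libraries left out it ran from 2 (without Control replicate 1) to 4. Polysome over total RNA in DMSO gave 4 with the lysate as a block (3 without). With the replicate number as a block the counts were 12 in nutrient total RNA (9 without) and 18 in nutrient polysome RNA (17). They were 6 in each drug fraction (6), 48 among nutrient pairs (44) and 22 among drug pairs (18). Over all genes the block called 33.4% of nutrient total RNA results (30.9% without) and 61.1% of nutrient polysome RNA results (57.8%). In the drug experiment it called 19.4% in total RNA (17.8%) and 16.1% in polysome RNA (15.1%). With each library left out, the counts ran from 7 to 11 in nutrient total RNA, 15 to 17 in nutrient polysome RNA, 5 to 7 in each drug fraction, 3 to 4 for DMSO, 36 to 45 among nutrient pairs and 15 to 19 among drug pairs; drug translational efficiency stayed at 0. Fits of a member result with a library left out were also sorted, outside the pairs of conditions. Of these, 656 kept their sign and their side of the threshold, whatever the size of the value. A call was lost in 31 and gained in 14, and in 49 an uncalled value changed sign.

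Over all genes, the called count for No arginine ran from 526 (without No arginine replicate 1) to 2903 in translational efficiency, against 2162, and from 617 (without Control replicate 1) to 1243 in total RNA, against 1168. For Torin1 translational efficiency it ran from 74 to 242 (228 with all), for 4EGI-1 from 8 to 117 (72), and for Halofuginone total RNA from 11 to 35 (35). Tox has too few nutrient counts for some fits with a minimum count of 50, which gave no value. Depth limits Tox most, with 11 to 34 counts in a nutrient total RNA library.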
